A study of Mus musculus with 28 samples.

Results

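Kit, Fcer1a, Il3ra and Hrh1 are the receptor genes linked to mast cells and to histamine on a mouse inflammation panel of quantitative PCR assays. Every assay that carries 1 of these 4 symbols was taken, which gave 5 of the 648 assays and 4 of the 584 genes, since Hrh1 has 2 assays. The RNA came from microporous scaffolds of polycaprolactone (PCL), a degradable polyester, implanted in 28 female BALB/c mice. Host cells grow into such an implant, and the labels call the resulting tissue a synthetic niche made of immune, stromal and epithelial cells. The tumor-bearing mice had been inoculated with 4T1-luc2-tdTomato, a mouse mammary carcinoma line that carries luciferase and a red fluorescent protein, and the healthy mice were tumor-free at analysis, although the labels list the cell line for them as well. Scaffolds were removed at day 7 (3 healthy, 3 tumor-bearing mice), day 14 (8 and 8) and day 21 (3 and 3) after inoculation, and no age of the mice was given. A later day also means an older implant, so time after inoculation and implant age cannot be told apart. Replicates are separate mice numbered 1 to 28 without repeats.

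Mast cells are long-lived tissue cells that mature locally under the control of stem cell factor, the ligand of the receptor tyrosine kinase KIT. They bind IgE through the high-affinity receptor FcεRI, whose IgE-binding alpha chain is encoded by Fcer1a, and release histamine and proteases when that receptor is crosslinked. Basophils carry the same receptor, and interleukin-3, which acts through the alpha chain encoded by Il3ra, drives the growth and survival of basophils and of mouse mast cells. Histamine acts on other cells through 4 receptors, of which the H1 receptor, encoded by Hrh1, is found on endothelium and smooth muscle. Kit, Il3ra and Hrh1 are also expressed outside the mast cell lineage, and Fcer1a is the most restricted of the 4 in the mouse.

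Of the 19 genes in a list of mast cell and basophil markers, 5 have an assay on the panel (Kit, Fcer1a, Il3ra, Fcer1g and Il1rl1). The granule protease genes and Hdc, which encodes the histamine-forming enzyme, were not analysed here, so the cells behind the 4 receptors were not identified. A transcript that is lower in a piece of tissue can reflect fewer cells or less RNA per cell, and these cannot be told apart here.

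The assays read transcripts, not promoters, and the sequence just upstream of the start is shown for Fcer1a and Kit as the regulatory context of the 2 genes that most define a mast cell. GATA factors are regulators of mast cell genes, and GATA and its reverse complement TATC are in capitals. Both stretches are 250 bases from RefSeq on GRCm38.p6, written 5′ to 3′ on the strand of the gene. Fcer1a lies on the minus strand, at chr1:173221269-173227232, and the stretch printed is chr1:173227230-173227479. By these coordinates its last few bases lie inside the gene. Kit lies on the plus strand, at chr5:75574987-75656722, and the stretch printed is chr5:75574737-75574986.
Fcer1a: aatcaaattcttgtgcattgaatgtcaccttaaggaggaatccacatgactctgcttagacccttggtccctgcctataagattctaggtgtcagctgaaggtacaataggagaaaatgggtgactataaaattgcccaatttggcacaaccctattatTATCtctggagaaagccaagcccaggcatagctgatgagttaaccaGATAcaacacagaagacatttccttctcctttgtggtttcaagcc
Kit: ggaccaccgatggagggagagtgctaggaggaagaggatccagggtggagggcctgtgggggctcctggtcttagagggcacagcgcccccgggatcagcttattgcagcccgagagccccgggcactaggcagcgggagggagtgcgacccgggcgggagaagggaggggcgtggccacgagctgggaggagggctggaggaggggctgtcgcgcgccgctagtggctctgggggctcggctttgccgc
The Fcer1a stretch held 2 matches and the Kit stretch 0. Of 32851 mouse promoter stretches of this length, 53.6% held at least 1 match and 24.2% held at least 2. These are letter matches in a short window and show no binding site.

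Values are given as log2 relative quantity, in which 1 unit is 1 PCR cycle, or a doubling at full efficiency, relative to the mean of 5 reference genes. Because each assay has its own efficiency, levels were not compared between assays. The quantification cycle (Cq) counts the cycles a reaction needs to be detected, and more template gives a lower Cq. Kit gave a Cq in 28 of 28 samples (median Cq 22.9), Il3ra in 27 (median 20.8) and Fcer1a in 25 (median 27.9). The Hrh1 assay that lists 3 RefSeq transcripts gave a Cq in 27 samples (median 25.6), while the Hrh1 assay that lists 1 transcript gave a Cq in 14 (median 29.9). Across the panel, 475 to 587 assays per sample gave a Cq, and the lowest counts were those of day 14 healthy replicate 13 (475) and day 14 tumor-bearing replicate 21 (489), which ran on the same panel. Of the 15900 reactions with a Cq, 50 (0.314%) lay over 4 cycles away from the median of their group, and 9 of these were in healthy replicate 13, 9 in healthy replicate 14 and 11 in day 21 tumor-bearing replicate 26.

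**Figure D1:**
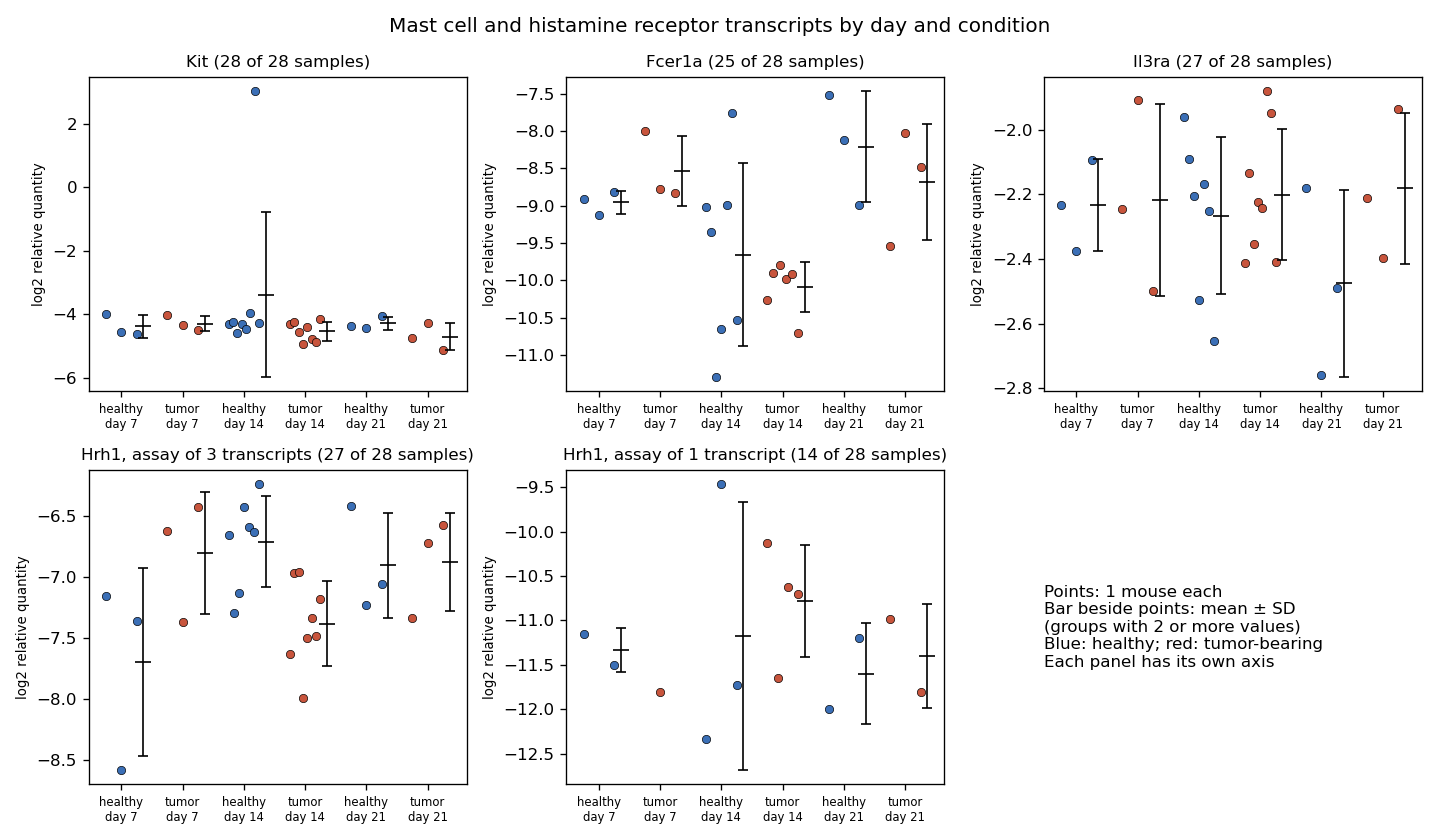
Log2 relative quantity of each assay (vertical axes, each on its own scale) in the 6 groups (horizontal axes); each point is 1 mouse, blue healthy and red tumor-bearing, and the bar beside the points is the mean ± SD. The Kit value of 3.01 in 1 day 14 healthy mouse stands far above the other 27, and the 6 measured Fcer1a values of day 14 tumor-bearing mice lie between -10.70 and -9.79.

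None of the 5 assays of the 4 genes passed the threshold of an adjusted p under 0.05 in any comparison. In the limma model, 0 of 72 contrasts of the 5 assays passed and 10 had an unadjusted p under 0.05, 5 for Fcer1a and 5 for the Hrh1 assay of 3 transcripts. Over all assays and the same 16 contrasts, 0.845% passed and 10.4% had an unadjusted p under 0.05, against 13.9% of the 72. The contrasts share samples, and the 2 shares are close. For tumor-bearing against healthy mice, the share of all assays past the threshold was 0.0% at day 7, 2.38% at day 14, 1.22% at day 21 and 2.5% for the mean of the 3 days. For changes between days 7 and 21 it was 0.0% in healthy mice, 0.529% in tumor-bearing mice and 2.86% as the mean of both conditions, and for day 14 to day 21 in healthy mice it was 0.346%. Exact permutation tests over the mice of 1 day were run for 14 assay and day combinations, and the smallest p was 0.00435 before and 0.213 after adjustment over all assays. Groups of 3 against 3 cannot give an exact p below 0.1. In the limma model, 9 of 9 neutrophil marker assays were higher past the threshold in tumor-bearing mice at day 14, with a median log2 difference of 2.17.

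Kit encodes the receptor for stem cell factor, on which mast cells depend. At day 7, Kit was at -3.97, -4.55 and -4.61 in the healthy mice and at -4.03, -4.33 and -4.50 in the tumor-bearing mice. The groups overlapped, and the fitted difference was 0.09 ± 1.13 (standard error, as after every fitted difference). At day 21 the healthy values were -4.37, -4.42 and -4.05 and the tumor-bearing values were -4.74, -4.26 and -5.10. The 2 lowest of these 6 were tumor-bearing mice, and the difference was -0.42 ± 1.13 (adjusted p = 0.995).

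At day 14 the 8 healthy mice ranged from -4.57 to 3.01 with a median of -4.28, and the 8 tumor-bearing mice from -4.93 to -4.14 with a median of -4.47. The highest value, 3.01, belonged to healthy replicate 13, and the other 7 healthy mice lay between -4.57 and -3.95, overlapping the tumor-bearing mice. The Kit reaction of replicate 13 had a Cq of 15.4, 7.49 cycles before the median of its group and 6.96 cycles before the next earliest of the 27 other Kit reactions, which spanned 22.4 to 23.996. With this reaction the healthy mean was -3.38 ± 2.59 (SD, n = 8), and without it -4.30 ± 0.19 (SD, n = 7), against -4.53 ± 0.30 (SD, n = 8) in tumor-bearing mice.

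That reaction set the size of the day 14 difference in Kit. The fitted difference was -1.25 ± 0.73 with it (adjusted p = 0.583; two-sided exact permutation p = 0.0547) and -0.24 ± 0.16 once reactions over 4 cycles away from the median of their group were left out, with a 95% interval of -0.56 to 0.08. Without replicate 13 the exact permutation p was 0.109 for a difference of means of -0.23. The fold change in the authors' deposited table, tumor-bearing over healthy at day 14, is 0.452, and the same ratio of group means without replicate 13 was 0.851. Without the reaction, the interval of the day 14 fold ran from 0.680 to 1.06. The standard errors at day 7 and day 21 fell from 1.13 to 0.23, since the model shares 1 estimate of the spread, and the intervals then ran from -0.39 to 0.57 at day 7 and from -0.90 to 0.06 at day 21.

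The early Kit reaction was 1 of 9 in replicate 13 that lay more than 4 cycles from the group median, 7 of them early. The other early ones were Clcf1 (13.9 cycles), Ppbp (12.9), Tslp (8.81), Chst2 (6.70), S1pr3 (5.82) and Ptn (4.22), and Chst4 and Scube1 were late by 5.07 and 5.55 cycles. Clcf1 and Ppbp encode a cytokine of the interleukin-6 family and a platelet chemokine, and TSLP is an epithelial cytokine that acts on mast cells. Fcer1g, Il1rl1, Il3ra and Kitl were not among the early reactions. Fcer1a gave no Cq in replicate 13, and Il1rl1 and Kitl each gave a Cq in 27 of 28 samples. A reaction without a Cq could not be counted as early. Over the whole table, 11 reactions were at least as far ahead of their group median as this Kit reaction. Because of it, the 3 assays whose pattern was most like that of Kit over 28 samples were Clcf1 (Pearson r = 0.972), S1pr3 (r = 0.958) and Ppbp (r = 0.950). Without replicate 13 the 3 most alike of 541 assays were Cntfr (r = 0.666), Egfr (r = 0.547) and Fasl (r = 0.531) over 27 samples, and no assay was in both lists of 3.

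**Figure D2:**
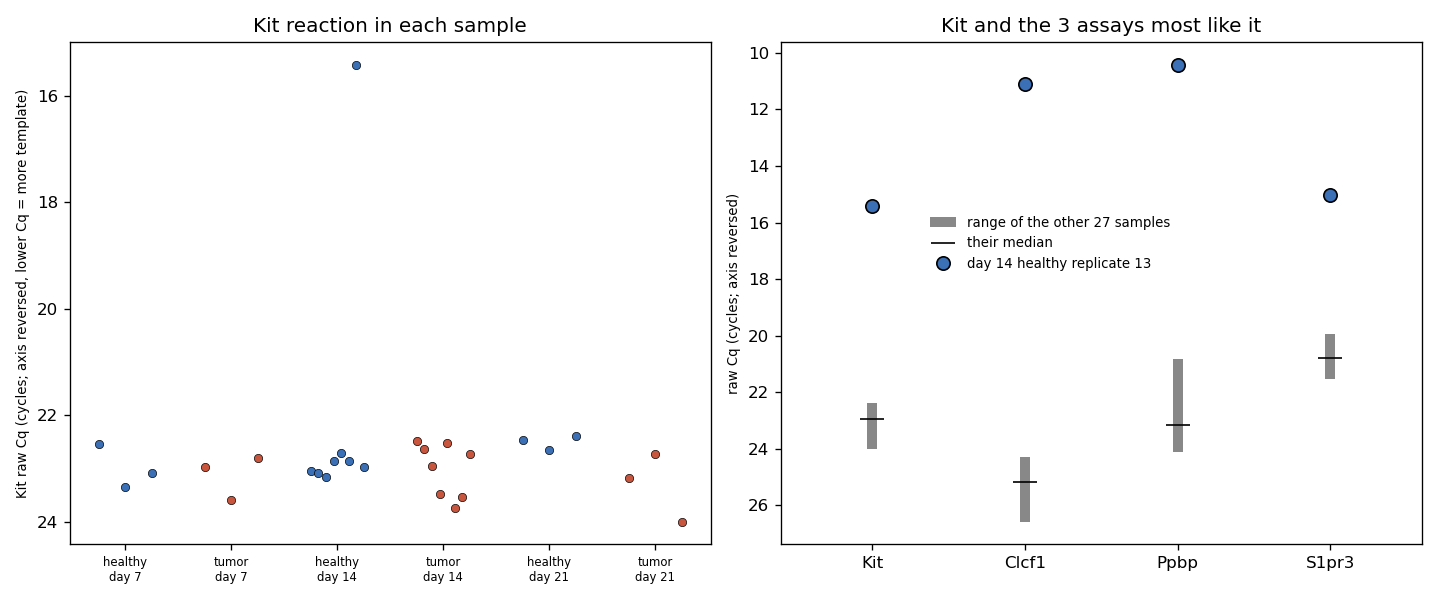
Left, raw Kit Cq in each mouse by group, blue healthy and red tumor-bearing; right, raw Cq of Kit, Clcf1, Ppbp and S1pr3 in day 14 healthy replicate 13 (circle) beside the range (bar) and median (line) of the other 27 samples. Both Cq axes are reversed, so that more template is higher. Replicate 13 is ahead of the range of the others in all 4 assays, at 15.4 against 22.4 to 23.996 cycles for Kit.

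Without that reaction Kit was among the steadier transcripts of the panel. Its SD within groups was 0.28, and 22.9% of 577 assays had a smaller one, against an SD of 1.48 with the reaction. The order of the group means from high to low was then day 21 healthy (-4.28), day 7 tumor-bearing (-4.29), day 14 healthy (-4.30), day 7 healthy (-4.38), day 14 tumor-bearing (-4.53) and day 21 tumor-bearing (-4.70). Neighbours in this order were closer than the SD within either group, and the lowest and highest means differed by 0.42 with SDs of 0.42 and 0.21. Kit was higher in the tumor-bearing mouse in 5 of 10 pairs matched for day and panel and lower in the other 5, and without the pair of replicate 13 it was higher in 5 and lower in 4 of 9. Between days, Kit differed by -0.08 ± 0.14 from day 7 to day 14 and by -0.07 ± 0.14 from day 14 to day 21 as the mean of both conditions, without the outlying reactions. Kitl, which encodes stem cell factor, differed between tumor-bearing and healthy mice by 0.26 ± 0.24 at day 7, -0.15 ± 0.16 at day 14 and -0.23 ± 0.24 at day 21.

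Fcer1a encodes the chain of FcεRI that holds IgE. At day 7 its values were -8.91, -9.12 and -8.82 in healthy mice and -7.997, -8.78 and -8.83 in tumor-bearing mice. At day 21 they were -7.52, -8.13 and -8.99 in healthy mice and -9.54, -8.03 and -8.48 in tumor-bearing mice. The conditions overlapped on both days. At day 14, 7 of 8 healthy mice gave a value, with a range of -11.30 to -7.76 and a median of -9.35, and 6 of 8 tumor-bearing mice gave one, with a range of -10.70 to -9.79 and a median of -9.95. The 3 mice without a value were healthy replicate 13 and tumor-bearing replicates 21 and 22, whose samples gave a Cq in 475, 489 and 562 assays. The tumor-bearing values were tightly grouped and lay inside the wide healthy range.

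The differences in Fcer1a between tumor-bearing and healthy mice were within the spread between mice. The difference was 0.42 ± 0.62 at day 7 (95% interval -0.88 to 1.71), -0.50 ± 0.45 at day 14 (-1.45 to 0.44) and -0.47 ± 0.62 at day 21 (-1.77 to 0.82). The adjusted p was 0.997, 0.701 and 0.966. With 1 mouse left out at a time the difference kept its sign, and it came nearest to 0 at 0.16 without tumor-bearing replicate 4 (day 7), -0.13 without healthy replicate 12 (day 14) and -0.018 without tumor-bearing replicate 26 (day 21). The authors' deposited table gives fold changes of 1.33, 0.741 and 0.720 for these days. Panels D and G held only day 14 healthy and only day 14 tumor-bearing mice, respectively, and the difference was 0.10 ± 0.49 between those panels, -1.23 ± 0.68 over the panels of both conditions, and -1.52 ± 0.76 with the panel as a fixed block, and the smallest adjusted p of these was 0.423. The choice of panels moved the size of the day 14 value, and between panels D and G its direction.

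The days stood further apart in Fcer1a than the conditions did, with the lowest values at day 14. Over both conditions, the 6 mice of day 7 had a mean of -8.75 (SD 0.39), the 13 measured mice of day 14 a mean of -9.86 (SD 0.92) and the 6 mice of day 21 a mean of -8.45 (SD 0.73). As the mean of both conditions, day 14 differed from day 7 by -1.10 ± 0.39 (unadjusted p = 0.0102, adjusted p = 0.146), where 2.66% of 564 assays passed the threshold and 18.6% had an unadjusted p under 0.05. Day 21 differed from day 14 by 1.45 ± 0.40 (unadjusted p = 0.00159, adjusted p = 0.0725), where 0.876% of 571 assays passed and 19.6% had an unadjusted p under 0.05. Neither passed in the fit to all 28 samples. The threshold was passed without healthy replicate 12, at -1.30 (adjusted p = 0.0374) and 1.60 (adjusted p = 0.0135), and for the later step also without healthy replicate 13, at 1.44 (adjusted p = 0.0489). Replicate 13 has no Fcer1a value, so the Fcer1a values were unchanged in that fit and only those of other assays differed. Replicate 12 had the highest Fcer1a value of its group, -7.76. Day 21 differed from day 7 by 0.34 ± 0.46.

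In the tumor-bearing mice, the day 14 values of Fcer1a did not overlap with those of the other days. All 6 measured values at day 14 lay below every value of day 7 and of day 21, the nearest being -9.79 against -9.54. Of all assays, 1.75% lay below in this way from day 7 to day 14 in tumor-bearing mice, and 3.6% lay above from day 14 to day 21. Counted in either direction, 4.2% and 5.15% of assays had groups without overlap in these steps. The fitted steps were -1.56 ± 0.56 (adjusted p = 0.317, where 0.175% of assays passed) and 1.46 ± 0.56 (adjusted p = 0.286, where 0.0% passed). With only the tumor-bearing groups of days 7 and 14 in the fit, the first step was -1.60 with an adjusted p of 0.0385. In the healthy mice the steps were -0.64 ± 0.54 and 1.43 ± 0.55 (adjusted p = 0.680 and 0.182), with overlapping values. The test of whether the steps differed between the conditions gave -0.92 ± 0.77 for day 14 against day 7 (adjusted p = 0.992) and 0.03 ± 0.77 for day 21 against day 14 (adjusted p = 0.989).

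Panels A and B each held 1 mouse of both conditions at days 7 and 14, which allows Fcer1a to be read on the same panel. On panel A it was -8.91 at day 7 and -9.00 at day 14 in healthy mice, and -7.997 and -9.92 in tumor-bearing mice. On panel B it was -9.12 and -7.76 in healthy mice, and -8.78 and -10.70 in tumor-bearing mice. The tumor-bearing mouse was lower at day 14 on both panels, while the healthy mouse was almost level on panel A and higher on panel B. The low healthy values of day 14, -10.52, -10.66 and -11.30, came from panels F and D. Without panels D and G the mean step from day 7 to day 14 was -0.97 ± 0.46 and the step from day 14 to day 21 was 1.30 ± 0.47 (adjusted p = 0.392 and 0.281).

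**Figure D3:**
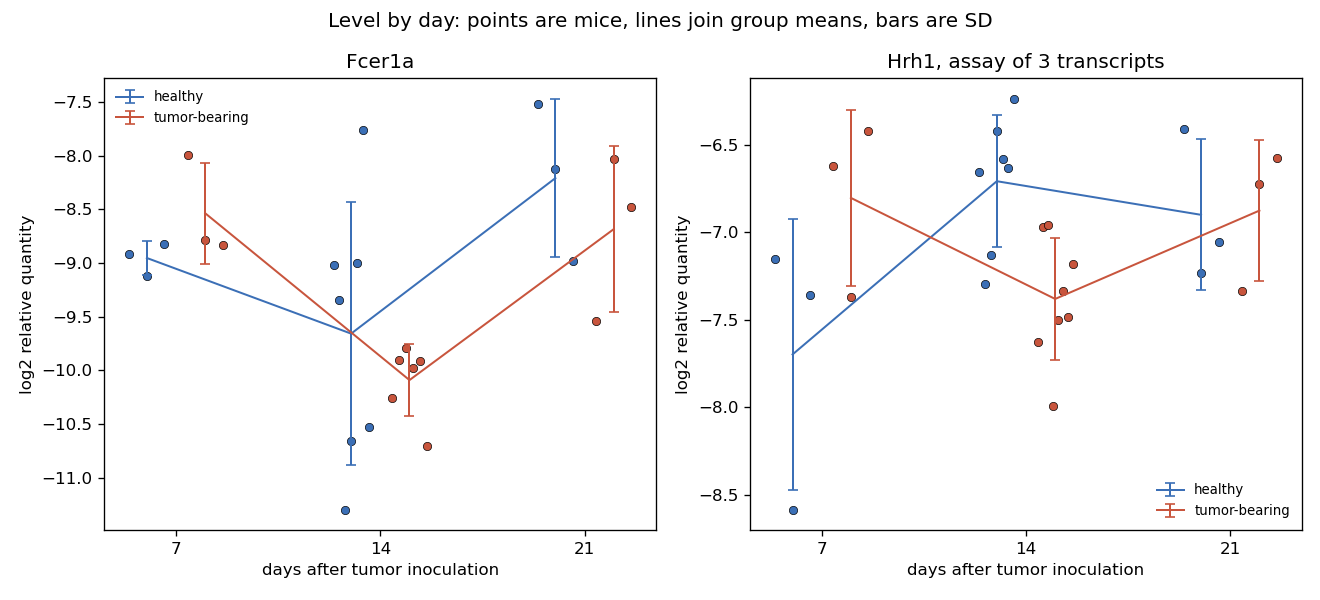
Log2 relative quantity of Fcer1a (left) and of the Hrh1 assay of 3 transcripts (right) against days after tumor inoculation; points are mice, shifted sideways from days 7, 14 and 21 so that the conditions can be told apart, lines join group means and bars are SD. Fcer1a is lowest at day 14 in both conditions, at means of -9.66 in healthy and -10.09 in tumor-bearing mice, and the Hrh1 lines cross between day 7 and day 14.

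Among the group means of Fcer1a, the order from high to low was day 21 healthy (-8.21 ± 0.74), day 7 tumor-bearing (-8.54 ± 0.47), day 21 tumor-bearing (-8.68 ± 0.78), day 7 healthy (-8.95 ± 0.15), day 14 healthy (-9.66 ± 1.22) and day 14 tumor-bearing (-10.09 ± 0.34), each ± SD. Neighbours in this order overlapped. The SD of Fcer1a within groups was 0.80, and 76.6% of the 577 assays had a smaller one. The assays most like Fcer1a among 519 were Cfp (r = 0.694, 25 samples), which encodes the complement regulator properdin, Ccl6 (r = 0.657, 24 samples), a myeloid chemokine, and Cfd (r = 0.650, 25 samples), which encodes complement factor D. These are correlations across samples that share panels and reference genes, given as a description.

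The other chain of FcεRI with an assay, Fcer1g, which encodes the signalling gamma chain shared with other Fc receptors, did not show the low day 14 values of Fcer1a. Fcer1g differed by 0.09 ± 0.10 from day 7 to day 14 and by 0.03 ± 0.10 from day 14 to day 21, as the mean of both conditions. Between tumor-bearing and healthy mice Fcer1g differed by 0.28 ± 0.16, 0.17 ± 0.10 and -0.17 ± 0.16 at days 7, 14 and 21. Lyn, the kinase that acts first below FcεRI and is common in myeloid cells, differed by 0.22 ± 0.08 at day 14 (unadjusted p = 0.0147, adjusted p = 0.240). Il1rl1, the receptor for interleukin-33 on mast cells and type 2 lymphocytes, differed by -0.24 ± 0.43, -0.43 ± 0.29 and 0.31 ± 0.43 at the 3 days. Of the 5 measured mast cell and basophil markers, 0 passed the threshold in either direction at any day, with a median log2 difference at day 14 of -0.43 against -0.08 over all assays. Without the reactions over 4 cycles from their group median, that of Kit included, these medians were -0.24 and -0.07. Of the 5 measured genes of KIT and FcεRI ligands and signalling (Kitl, Kit, Fcer1a, Fcer1g and Lyn), 0 passed, with a median of -0.15 with and without those reactions.

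Il3ra encodes the interleukin-3 binding chain and was the steadiest of the 4 receptors. At day 7 it was -2.23, -2.38 and -2.09 in healthy mice and -2.25, -1.91 and -2.50 in tumor-bearing mice. At day 14 the healthy mice ranged from -2.65 to -1.96 with a median of -2.20 (7 of 8 with a value), and the tumor-bearing mice from -2.41 to -1.88 with a median of -2.23 (8 of 8). At day 21 it was -2.18, -2.76 and -2.49 in healthy mice and -2.21, -2.40 and -1.93 in tumor-bearing mice. The groups overlapped at every day. The SD within groups was 0.23, and 14.2% of the 577 assays had a smaller one.

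The narrow spread gave narrow intervals for Il3ra. Tumor-bearing minus healthy was 0.02 ± 0.20 at day 7 (fold 1.01, 95% interval 0.762 to 1.34), 0.09 ± 0.13 at day 14 (fold 1.06, 0.879 to 1.28) and 0.29 ± 0.20 at day 21 (fold 1.23, 0.924 to 1.63), with adjusted p of 0.997, 0.855 and 0.740. The mean of the 3 days was 0.13 ± 0.10 (fold 1.10, 0.946 to 1.27). Between days the mean of both conditions moved by 0.00 ± 0.12 from day 7 to day 14 and by -0.08 ± 0.12 from day 14 to day 21. The group means ran from -2.18 at day 21 in tumor-bearing mice to -2.48 at day 21 in healthy mice, with the other 4 between -2.27 and -2.20, and no neighbours in this order differed beyond their SDs, which were 0.14 to 0.30. The most alike of 541 assays over 27 samples were Irf3 (r = 0.667), Fn1 (r = 0.545) and Il7r (r = 0.539).

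The ligand of Il3ra was barely detected, since the Il3 assay gave a Cq in 2 of 28 samples. Csf2rb, the beta chain that the receptors for interleukin-3, interleukin-5 and GM-CSF share, differed between the conditions by 0.02 ± 0.22, -0.07 ± 0.14 and -0.23 ± 0.22 at days 7, 14 and 21. In the list of the interleukin-3 family and its receptors, 0 of 7 assays passed the threshold at day 14 or at day 21, and 0 of 6 at day 7. Over time, 1 of 7 rose from day 14 to day 21 as the mean of both conditions, the Csf2 assay at 1.39 ± 0.32 (adjusted p = 0.0321). Of all assays, 0.876% passed the threshold in this step. Csf2 encodes GM-CSF, and its second assay gave 0.79 ± 0.53 for the same step (adjusted p = 0.382). Among mast cell growth and type 2 cytokines, Il9 gave no Cq in any sample, Il4 in 5 and the 2 Il13 assays in 12 and 7. Of the assays tested in that list, 0 passed between the conditions at any day. From day 7 to day 14, 1 of 5 fell past the threshold, Il4ra at -0.54 ± 0.13 (adjusted p = 0.0397), which encodes the receptor chain shared by interleukin-4 and interleukin-13. Of all assays, 2.66% passed in that step. The other assays of the list ran from -0.04 to 0.16, and the median of the list was 0.02. Il33 and Tslp, both epithelial and stromal signals to mast cells, differed at day 14 by 0.03 ± 0.15 and -1.62 ± 0.95, and the Tslp value includes the early reaction of healthy replicate 13 given above.

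Hrh1 encodes the histamine H1 receptor and lies at chr6:114397936-114483298 on GRCm38. With the assay of 3 transcripts, the day 7 values were -7.15, -8.58 and -7.36 in healthy mice and -6.62, -7.37 and -6.42 in tumor-bearing mice. The tumor-bearing mice held the 2 highest values, but -7.37 lay within the healthy range. At day 14 the healthy mice ranged from -7.29 to -6.24 with a median of -6.63 (7 of 8 with a value), and the tumor-bearing mice from -7.99 to -6.96 with a median of -7.41 (8 of 8). The tumor-bearing mice lay lower here, with overlap between -7.29 and -6.96. At day 21 the values were -6.41, -7.23 and -7.06 in healthy mice and -7.33, -6.72 and -6.57 in tumor-bearing mice, which overlapped.

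Hrh1 thus had opposite signs at days 7 and 14. Tumor-bearing minus healthy was 0.89 ± 0.35 at day 7 (fold 1.86, 95% interval 1.13 to 3.05; unadjusted p = 0.0170, adjusted p = 0.997), -0.69 ± 0.23 at day 14 (unadjusted p = 0.00687, adjusted p = 0.161) and 0.02 ± 0.35 at day 21. The two-sided exact permutation p at day 14 was 0.00435 before adjustment and 0.213 after it. An unadjusted p under 0.05 was reached by 2.3% of all assays at day 7 and by 10.5% at day 14. The authors' deposited table gives fold changes of 1.86, 0.628 and 1.02. The mean of the 3 days was 0.08 ± 0.18.

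Read on the same panel, the tumor-bearing mouse was higher in 3 of 3 pairs at day 7, by 0.53, 1.21 and 0.94. It was lower in 3 of 3 pairs at day 14, by -0.91, -0.70 and -0.94, and at day 21 it was higher in 2 of 3, with differences of 0.48, -0.92 and 0.51. The share of all assays with pairs alike in sign was not counted. The test of the change of the difference from day 7 to day 14 gave -1.58 ± 0.42 (unadjusted p = 0.000934, adjusted p = 0.261), where 0.0% of 564 assays passed the threshold and 3.72% had an unadjusted p under 0.05. The change from day 14 to day 21 was 0.71 ± 0.42 (adjusted p = 0.741). Between panels D and G, the day 14 difference was -0.51 ± 0.30, and over the panels of both conditions it was -0.89 ± 0.32.

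In the healthy mice alone, Hrh1 differed by 1.01 ± 0.30 from day 7 to day 14 (unadjusted p = 0.00270, adjusted p = 0.215, where 0.0% of 572 assays passed and 12.9% had an unadjusted p under 0.05). In the tumor-bearing mice the same step was -0.57 ± 0.30 (adjusted p = 0.588). The day 7 healthy group includes replicate 2 at -8.58, the lowest of all 27 values. Without it the day 7 difference was 0.46, the healthy step from day 7 to day 14 was 0.58 (adjusted p = 0.659) and the change of the difference was -1.15 (adjusted p = 0.995).

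The means of this Hrh1 assay from high to low were day 14 healthy (-6.71 ± 0.38), day 7 tumor-bearing (-6.80 ± 0.50), day 21 tumor-bearing (-6.88 ± 0.40), day 21 healthy (-6.90 ± 0.43), day 14 tumor-bearing (-7.38 ± 0.35) and day 7 healthy (-7.70 ± 0.77), each ± SD. Neighbours overlapped. The SD within groups was 0.44, close to the median of all assays, 0.46. The most alike of 541 assays over 27 samples were Krt7 (r = 0.506), Cntfr (r = 0.454) and Hmgb1 (r = 0.454), lower correlations than those of the assays nearest to the other 3 receptors.

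The Hrh1 assay of 1 transcript did not give a usable check. Its 14 values, from -12.33 to -9.47, came from Cq of 28.3 to 30.6, and it gave a Cq in 2 of 3 and 1 of 3 mice at day 7, in 3 of 8 and 4 of 8 at day 14, and in 2 of 3 and 2 of 3 at day 21 (healthy and tumor-bearing). At day 14 it differed by 0.40 ± 0.63 (95% interval -1.01 to 1.81) and at day 21 by 0.20 ± 0.81. Its fitted sign at day 14 was opposite to that of the other assay, with an interval that spans the other assay's value of -0.69. Over the 13 samples with both assays, the Pearson correlation was -0.26 (permutation p = 0.380) and Spearman's rho was -0.60 (permutation p = 0.0336), adjusted p = 0.168 over the 10 pairs of assays.

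**Figure D4:**
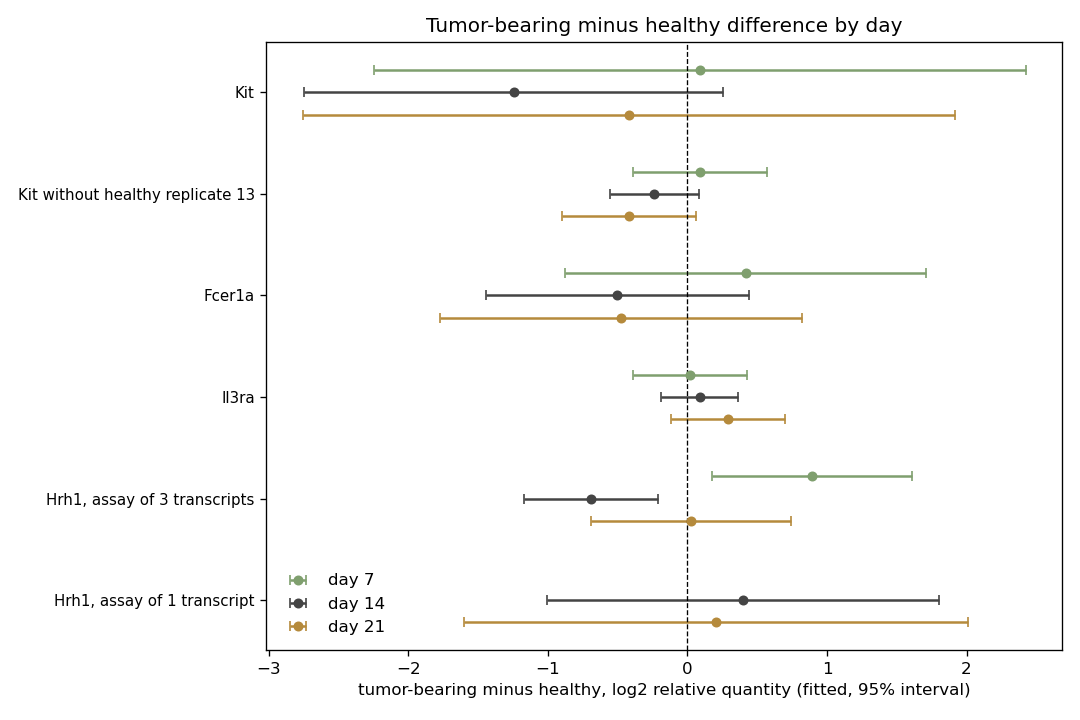
Fitted tumor-bearing minus healthy log2 difference (horizontal axis) with its 95% interval for each assay (vertical axis) at day 7 (green), day 14 (dark grey) and day 21 (ochre); the Kit row is repeated without the reaction of healthy replicate 13. The intervals of the Hrh1 assay of 3 transcripts lie on opposite sides of 0 at day 7 (0.89) and day 14 (-0.69), and all other intervals include 0.

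Hrh1 was the only member of 8 genes listed for histamine synthesis, breakdown and receptors that has an assay on the panel. Of the 5 measured vasoactive and biogenic amine receptor genes, Hrh1 included, 0 passed the threshold at any day. The bradykinin B1 receptor gene Bdkrb1 had the smallest p of the others at day 21, at -0.81 ± 0.46 (adjusted p = 0.674). Of the 3 measured eosinophil marker genes, 0 passed. The eotaxin receptor gene Ccr3 differed at day 14 by -0.53 ± 0.22 and -0.39 ± 0.18 in its 2 assays (adjusted p = 0.297 and 0.414). Prg2, which encodes major basic protein of eosinophil granules, went the other way at day 14, at 0.96 ± 0.87. The remaining gene, Il5ra, was at -0.38 ± 0.73 on that day. At day 21 Prg2 differed by 2.69 ± 1.199 (adjusted p = 0.491), while Ccr3 was at 0.05 and 0.09 and Il5ra at -0.08.

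Over the 10 pairs of assays, Pearson's r ran from -0.42 to 0.30 and Spearman's rho from -0.60 to 0.30, and 0 pairs had an adjusted permutation p under 0.05, while 1 pair by Pearson and 2 by Spearman had an unadjusted p under 0.05. The strongest Pearson correlation was that of Il3ra with Kit, r = -0.42 and rho = -0.44 over 27 samples (permutation p = 0.0276 and 0.0241, adjusted p = 0.276 and 0.168). Without the 2 samples farthest from the median of Il3ra, r was -0.42. It was -0.37 when those far reactions were left out (adjusted p = 0.639). Fcer1a and Kit gave r = 0.27 over 25 samples (permutation p = 0.192, adjusted p = 0.639), and r was 0.16 without the 2 farthest samples. Panels held 4 samples each, too few for a value within a panel.

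Among markers of other cell types, mainly those of neutrophils moved with the condition in the same samples, with assays past the threshold at days 14 and 21 but not at day 7. The summed relative quantity of the neutrophil marker assays was 0.432 to 2.17 (median 0.906) in healthy and 1.21 to 9.92 (median 3.12) in tumor-bearing mice at day 14, and 3.00 to 4.79 and 8.05 to 14.8 at day 21. At day 7 it was 1.56 to 3.26 and 2.45 to 3.45. The sum is on the linear scale, so the assays with the earliest Cq weigh most, those of S100a8 (median Cq 19.6 and 18.6) and S100a9 (18.8). It adds assays that each have their own efficiency and includes both S100a8 assays. A reaction without a Cq added nothing to it. In the limma model these did not pass at day 21 (adjusted p = 0.459, 0.491 and 0.263), while 5 of the 10 neutrophil marker assays tested did. All 9 listed neutrophil genes with an assay were detected in at least 16 samples. Among 6 monocyte, macrophage and dendritic cell markers, 1 was lower past the threshold at day 21, Ccr7 at -1.18 ± 0.29 (adjusted p = 0.0427). The list did not fall as a whole, with a median of 0.27. Ccr2, Mrc1, Cx3cr1 and Itgam were at 0.78, 0.47, 0.39 and 0.16, and Cd14 was at -0.14. Of 5 T cell markers 0 passed at any day, with a median difference at day 14 of -0.72, led by Foxp3 at -1.07 ± 0.40 (adjusted p = 0.240). The epithelial marker Krt8 differed by -3.64 ± 1.25 at day 14 (adjusted p = 0.195), and 0 of 2 endothelial markers and 0 of 1 fibroblast markers passed. Without the reactions over 4 cycles from their group median, the day 14 difference of Krt8 was -4.72 and passed the threshold. The part of these shifts in the values of the 4 receptors was not tested.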

How the data were processed

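RNA from each scaffold was reverse transcribed and measured with TaqMan assays of an OpenArray inflammation panel, per the labels' protocols, on 7 panels of 4 samples, called A to G here. The authors deposited raw Cq values (a score in PCR cycles) and normalized values, which are a ratio on a linear scale per the file headers. From the values, these equal 2 to the power of the mean Cq of 5 reference genes, whose names are not reported here, minus the assay's Cq, within 0.001 cycle in 28 of 28 samples. The authors' deposited table gives a fold ratio per day without errors. Reactions without a Cq (12.4%) are written Undetermined or NA and were left missing. All tests used log2 of the normalized ratios.

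Differences were fitted with limma 3.58.1 (lmFit and eBayes; R 4.3.3), with 1 mean per group over 28 samples and the panel as a random block (duplicateCorrelation, statmod 1.5.0, correlation 0.0535). Assays entered with values in at least 50% of the samples of 1 group and at least 2 values in each group compared. P-values were adjusted by Benjamini-Hochberg over all assays of a contrast. The script was tested on simulated data. Correlations used 100000 resamples. The 5 assays were named in every comparison, and of each list the members past the threshold or with the smallest p, and partner genes chosen after their values were seen. The members and lists were chosen with earlier results of these data known. The number of mice limits precision.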

Additional observations from a re-analysis of the deposited data

Results flagged for a closer look

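The Kit value of day 14 healthy replicate 13, 3.01 on the log2 scale, lay far from the other 7 mice of its group: the gap to the nearest was 0.918 of the range of the group, above the critical value of 0.526 for 8 samples. Chance flags about 5% of groups, and 9 groups of these assays were tested in this way. This Kit reaction was known to be outlying before the test, so that rate does not apply to it and the flag only describes its distance. The sample gave the fewest Cq values of the series (475), and 9 of its reactions lay more than 4 cycles from the group median. The part of this sample's quality in its Kit value was not tested.

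The panel-matched pairs of the Hrh1 assay of 3 transcripts moved in opposite directions, with the tumor-bearing mouse higher in 3 of 3 pairs at day 7 and lower in 3 of 3 at day 14. The fitted change of the difference was -1.58 ± 0.42 and did not pass after adjustment (adjusted p = 0.261). Without healthy replicate 2 of day 7 it was -1.15 (adjusted p = 0.995). With 3 pairs per day, pairs alike in sign are easily reached, and the share of all assays with such pairs was not counted.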

How the results depend on the processing

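For the 26 differences of the 4 genes examined, 674 values were computed under other settings, of which 650 kept the direction and the side of the threshold, 6 passed it where the main value did not, and 18 changed sign. With reactions without a Cq set to the largest Cq, the Hrh1 assay of 3 transcripts gave 1.496 at day 14, 0.60 for the change of the difference from day 7 to day 14 and -0.95 for healthy mice from day 7 to day 14; healthy replicate 13, the only sample without a value, decides this. Between panels D and G alone, the day 14 difference was 0.10 for Fcer1a and -0.085 for Il3ra. Without healthy replicate 13 and tumor-bearing replicate 21, an alternative chosen after seeing the data, Il3ra at day 14 was -0.030 and Fcer1a from day 14 to day 21 was 1.44 (adjusted p = 0.0383). Neither of these mice has an Fcer1a value, so the Fcer1a values were those of the main fit and only other assays lost values. With the mean of the Hrh1 assays, day 21 was -0.0020, and with panels as fixed effects the Hrh1 mean of days was -0.0020. With only the tumor-bearing groups of days 7 and 14 in the fit, the Fcer1a step was -1.60 (adjusted p = 0.0385).

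With 1 mouse left out at a time, the Hrh1 assay of 3 transcripts ran from -0.15 to 0.30 at day 21 and from -0.067 to 0.17 for the mean of days, the Hrh1 assay of 1 transcript from -0.20 to 1.27 at day 14, Il3ra from -0.14 to 0.16 at day 7, and Kit from -0.039 to 0.29 at day 7 and from -1.501 to -0.24 at day 14. Fcer1a ran from 0.16 to 0.55 at day 7, from -0.74 to -0.13 at day 14 and from -0.87 to -0.018 at day 21 for tumor-bearing minus healthy, and from -1.30 to -0.97 for day 14 minus day 7, from 1.27 to 1.67 for day 21 minus day 14, and from 1.06 to 1.83 for the latter in healthy mice, where only the value without replicate 12, 1.77, passed (adjusted p = 0.0462). The causes were not tested.

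After centring raw Cq values by sample in place of the reference genes, the correlation of Il3ra with the Hrh1 assay of 3 transcripts was 0.14 in place of -0.03. That centring moved the day 14 median over all assays from -0.08 to 0.03, and it left the sign of each day 14 difference of the 4 genes as it was (Hrh1 assay of 3 transcripts -0.59). Without the outlying reactions that of Kit with the Hrh1 assay of 1 transcript was 0.27 in place of -0.15. The number of all assays past the threshold was 14 at day 14 (0 to 15 under other settings), 7 at day 21 (0 to 9), 14 for the mean of days (4 to 15), 15 for day 14 minus day 7 (0 to 33) and 5 for day 21 minus day 14 (0 to 31). No replicate number is shared between mice, so mice were matched only by panel, through the panel block and the pairs of 1 day and panel. Groups of 3 mice and the late Cq of Fcer1a and of the second Hrh1 assay limit what could be seen.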
